A study of Mus musculus with 4 samples.

Results

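Caveolins and cavins are the structural proteins of caveolae, the flask-shaped pits of the plasma membrane, and their 7 mouse genes were examined here among 21670 protein-coding genes for H3K4me3, trimethylation of histone H3 at lysine 4 and a mark of active promoters. The genes were taken by name: Cav1, Cav2 and Cav3 for the caveolins, and Cavin1, Cavin2, Cavin3 and Cavin4 for the cavins. Chromatin immunoprecipitation with sequencing (ChIP-seq) had been carried out on hearts of B6CASTF1/J females, 2 months old. There were 2 pools, G and H, given as biological replicates 1 and 2, with 2 heart biosamples and 2 technical replicates in each, which makes 4 libraries. A single donor record stands in every label, and whether the pools are separate animals is not stated. No treatment, genotype or other tissue was included.

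Caveolins are hairpin-shaped proteins that sit in the inner leaflet of the membrane and oligomerise, and cavins form a coat over them on the cytosolic side. Caveolae are dense in endothelium, in smooth and striated muscle and in adipocytes, where they flatten under stretch and gather signalling proteins. Cav1, with its partner Cav2, is the caveolin of endothelium, fibroblasts and adipocytes, and Cav3 is that of striated muscle. Cavin1 is needed for caveolae in both settings, Cavin2 and Cavin3 are found in vessels among other places, and Cavin4 is restricted to muscle. Cav1, Cav2, Cavin1, Cavin2 and Cavin3 are called vessel members below, and Cav3 and Cavin4 muscle members. In a piece of heart tissue, fewer cells of a type and less mark per cell cannot be told apart.

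The values come from 4 deposited peak lists on the mouse build mm10. The replicated list of both pools is the main one. Pool G and pool H also have a list each, and the fourth, a pseudoreplicated list of both pools, shares 24037 of the 24996 peaks of the replicated list and is not independent of it. A gene counted as marked where a peak came within 1000 bp of a start of one of its protein-coding transcripts. Its strength is the authors' signal value of the highest such peak, taken to be a fold enrichment over control, although the lists do not name that column. Its width is that of its widest promoter domain, after peaks with gaps of up to 1000 bp had been merged. The sources used here do not give the read depth. With 2 pools of 1 kind there is no contrast between conditions, so the values below are descriptions without tests, and members of a gene family are not replicates.

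All 7 genes were marked in all 4 lists. Over all protein-coding genes, 63.0% were marked in the replicated list, 63.4% in pool G's list, 61.3% in pool H's list and 63.4% in the pseudoreplicated list. Among markers of the cells that a heart can hold, all 5 listed genes of heart muscle, all 5 of endothelium and all 5 of fibroblasts were marked in the replicated list. Of these, Myh6, Cdh5, Col1a1 and Lum had no coding start under the mark, and the Myh6 domain also reaches the promoter of Gm17428. Smooth muscle and pericyte markers stood at 3 of 5, without Rgs5 and Tagln, and at 4 of 5 in pool G, where Rgs5 had a peak with a fold enrichment of 4.17. Those of adipocytes stood at 2 of 5 in the replicated list, without Adipoq, Lep and Plin1. Of the skeletal muscle markers 2 of 5 were marked, Actn3 and Mylpf, whose domains also reach the promoters of Zdhhc24 and Tbc1d10b. None of 5 lung epithelium markers was marked, in any of the 4 lists.

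**Figure D1:**
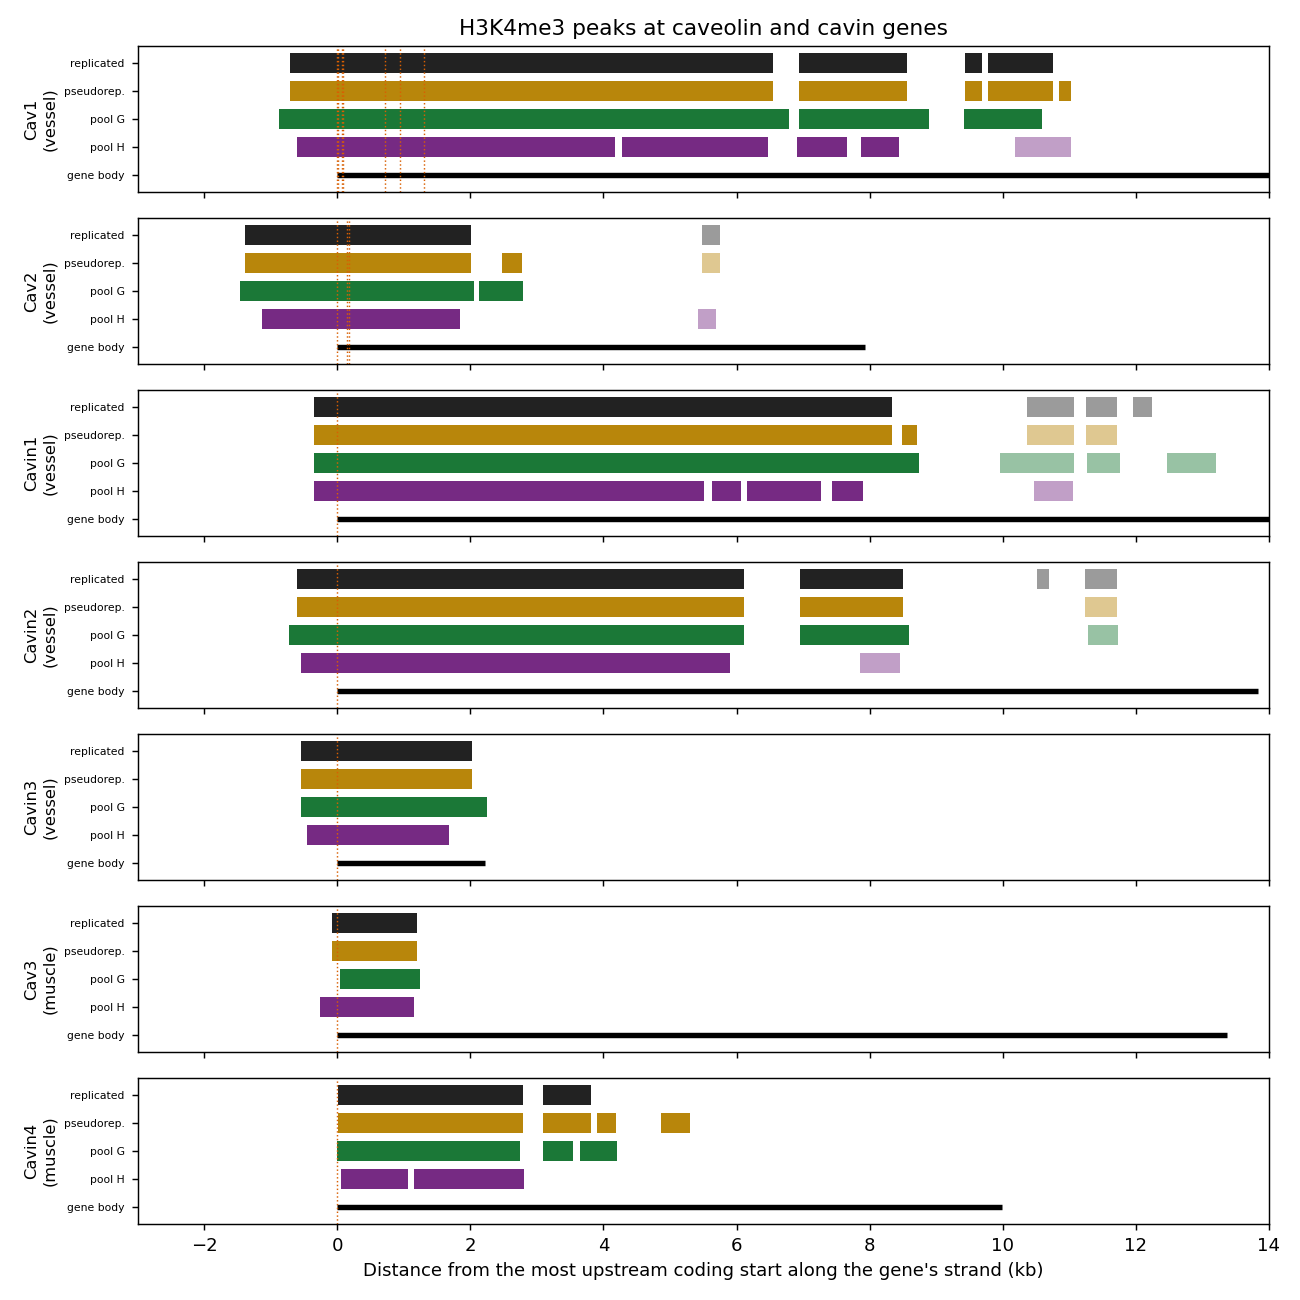
Peaks of the 4 lists at each gene, by distance in kb from its most upstream coding start along its strand, with coding starts as dotted lines and the gene body as a black bar cut at 14 kb. Dark bars belong to the gene's promoter domain and pale bars are other peaks, shown from 3 kb upstream. The domains of the vessel members reach at least 349 bp upstream in every list, and those of Cav3 and Cavin4 begin between 258 bp upstream and 50 bp downstream of it.

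Cav1, which encodes the principal scaffold protein of caveolae outside striated muscle, had the widest domain of the family in each of the 4 lists with peaks joined over gaps of up to 1000 bp. It runs on the plus strand of chromosome 6 from 17306335 to 17341452, with 7 coding starts spread over 1305 bp. The promoter sequence is shown because the mark covers all of it in every list. It holds 13 CpG dinucleotides, in capitals, against a median of 7 over 32851 RefSeq promoters of this length. RefSeq gives it on build GRCm38.p6 at chr6:17306085-17306384, plus strand, from 250 bp before the first start to 50 bp after it.
Cav1: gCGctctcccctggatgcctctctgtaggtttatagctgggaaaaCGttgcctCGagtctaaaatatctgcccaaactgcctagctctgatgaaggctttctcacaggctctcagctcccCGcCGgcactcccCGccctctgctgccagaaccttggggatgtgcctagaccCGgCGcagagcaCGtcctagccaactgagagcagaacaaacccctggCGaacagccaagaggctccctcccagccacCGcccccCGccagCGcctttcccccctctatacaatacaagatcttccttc
The Cav1 domain measured 11459 bp in the replicated list, from 17305625 to 17317083, and ended in intron 2 of the gene. Pool G gave 11467 bp and pool H 9043 bp, with a mean of 10255 ± 1714 bp (SD, n = 2). In the replicated list it was wider than that of 99.9% of marked genes, whose median was 1799 bp. In that list it was made of 4 peaks, of which the one at the starts measured 7262 bp on its own. The weakest of the 4 had a fold enrichment of 2.11 and a deposited -log10 q value of 0.64. With only peaks of -log10 q of at least 5 kept, the Cav1 domain of the replicated list measured 9277 bp. The rank depends on the joining: with no gaps joined, Cav1 at 7262 bp was narrower than Cavin1 at 8682 bp, and with gaps of up to 3000 bp, Cav1 at 11459 bp was narrower than Cavin1 at 12597 bp and Cavin2 at 12326 bp.

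The strength at Cav1 was not in the upper range. Its fold enrichment was 12.7 in the replicated list, higher than in 34.4% of marked genes, 14.1 in pool G (30.6%) and 14.5 in pool H (62.4%). Over the 13245 genes marked in both pools, the log2 fold enrichment of pool G minus that of pool H had a median of 0.51 with an SD over genes of 0.28, while at Cav1 it was -0.037. Cav1 was the only member with a lower fold enrichment in pool G than in pool H. The highest point of the mark lay 172 bp downstream of the last coding start, that at 17307640, in the replicated list and 139 bp downstream of it in pool G. In pool H it lay near the upstream cluster of starts instead, 285 bp downstream of the first.

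Cav2, the partner that forms hetero-oligomers with caveolin 1, lies 5' of Cav1 on the same strand, from 17281185 to 17289115, and its domain did not join that of Cav1 in any list. It was narrower and weaker. The domain measured 3389 bp in the replicated list, while pool G gave 4264 bp and pool H 2978 bp (3621 ± 909 bp, SD, n = 2). The fold enrichment was 8.82 in the replicated list, 10.8 in pool G and 6.40 in pool H, higher than in 18.5%, 19.3% and 12.3% of the marked genes of these lists. Its mark was the most evenly placed around the start: 59.2% of the domain in the replicated list lay downstream of the first start, and it reached 1384 bp upstream, farther than in 92.1% of marked genes. A weak separate peak with a fold enrichment of 2.86 stood in the gene body from 17286667 to 17286937. Pool H had one there too, at 3.85, and pool G did not.

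Cavin1, the coat protein without which caveolae do not form, was the only member that ranked high by strength as well as by width. The gene lies on the minus strand of chromosome 11, from 100956733 to 100970887. RefSeq places its start 270 bp downstream of the GENCODE start, and the promoter below, at chr11:100970568-100970867, is read from that start on the minus strand of GRCm38.p6. It is shown as the most CpG-rich of the printed promoters, with 17 CpG dinucleotides in capitals.
Cavin1: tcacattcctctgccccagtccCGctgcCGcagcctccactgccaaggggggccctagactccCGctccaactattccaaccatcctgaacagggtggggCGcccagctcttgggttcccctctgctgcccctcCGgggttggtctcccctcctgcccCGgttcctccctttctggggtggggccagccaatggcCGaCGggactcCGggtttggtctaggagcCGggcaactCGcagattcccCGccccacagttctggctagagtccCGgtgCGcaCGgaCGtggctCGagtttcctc
The fold enrichment was 24.6 in the replicated list, 27.7 in pool G and 21.1 in pool H. These values were higher than in 97.6%, 95.04% and 97.9% of the marked genes of the same lists. The domain measured 8682 bp in the replicated list, while pool G gave 9087 bp and pool H 8250 bp (8668.5 ± 592 bp, SD, n = 2). It was wider than that of 99.5%, 99.5% and 99.8% of the marked genes. In the replicated list and in pool G it was a continuous peak from the promoter into intron 1, whereas in pool H it was made of 4 peaks, the promoter one 5857 bp wide.

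Cavin1 also carried peaks away from its promoter. Besides the domain, the gene body held 3 peaks in the replicated list, 3 in pool G and 1 in pool H, with fold enrichments of 2.49 to 3.94 in the replicated list. They were not all the same peaks. Of those in the replicated list, the peak at 100959820 overlapped a peak in both pools and that at 100959165 a peak in pool G only. The peak at 100958640 overlapped none in either pool. A further peak stood upstream of the gene, overlapping no annotated gene, from 100983072 to 100983671. It lay 12185 bp from the Cavin1 start, which was the nearest coding start. Its fold enrichment was 7.76 in the replicated list, 11.1 in pool G and 5.26 in pool H, so it was present in both pools.

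Cavin2, a membrane-bending cavin abundant in endothelium, paired a wide domain with a CpG-poor promoter. It lies on the plus strand of chromosome 1 from 51289126 to 51302960, and the promoter, at chr1:51288876-51289175 on GRCm38.p6, is shown because it holds 4 CpG dinucleotides, in capitals, fewer than the other printed promoters.
Cavin2: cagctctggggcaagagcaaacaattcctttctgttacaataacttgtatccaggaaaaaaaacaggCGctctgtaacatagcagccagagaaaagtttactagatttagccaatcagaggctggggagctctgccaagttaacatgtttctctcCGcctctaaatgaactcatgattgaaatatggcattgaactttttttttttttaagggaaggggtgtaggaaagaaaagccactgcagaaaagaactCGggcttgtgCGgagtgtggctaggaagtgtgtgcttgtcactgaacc
The domain measured 9104 bp in the replicated list, while pool G gave 9314 bp and pool H 6442 bp (7878 ± 2031 bp, SD, n = 2). It lay above 99.6% of marked genes in the replicated list, 99.6% in pool G and 99.2% in pool H. The pools differed mainly in a second peak over intron 1, which was joined to the domain in pool G, with a fold enrichment of 4.87, and stood apart and narrower in pool H, at 3.17. The strength is less settled than the width. The fold enrichment was 17.2 in the replicated list, yet 13.2 in pool G and 8.06 in pool H, so that the value from both pools exceeds that of each pool. Over all genes marked in these 3 lists, 4.44% showed such an excess. Cavin3 and, by a small margin, Cavin4 did so as well, and at Cav1 the value from both pools lay below that of each pool, which was the case in 7.41% of genes.

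Cavin3, known as a binding partner of protein kinase C delta, is a short gene on the minus strand of chromosome 7, from 105480083 to 105482300. Its domain, 2569 bp wide in the replicated list, covered 91.2% of the gene body. Pool G gave 2803 bp and pool H 2136 bp (2469.5 ± 472 bp, SD, n = 2), and in pool G the mark ran past the 3' end of the gene. The fold enrichment was 16.0 in the replicated list, 14.6 in pool G and 13.6 in pool H, higher than in 54.8%, 32.7% and 55.7% of the marked genes of these lists. The start of Gm45667, a transcript on the opposite strand listed as to be experimentally checked, lay inside this domain at 105481927 in all 4 lists, so the peak cannot be assigned to Cavin3 alone. At the other members no start of another gene lay in the domain. The gene Gm15581 overlaps the Cav1 domain and the separate gene-body peak of Cav2, and 9330175M20Rik overlaps the Cavin2 domain of the replicated list. Where genes overlap, ChIP peaks carry no strand to tell them apart.

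Cav3, the muscle caveolin, carried the narrowest domain of the family. It lies on the plus strand of chromosome 6 from 112459505 to 112472872, far from Cav1 and Cav2 and next to Oxtr, the oxytocin receptor gene. Its promoter, at chr6:112459255-112459554 on GRCm38.p6, is shown beside that of Cavin4 because in most lists the mark leaves part of each uncovered. It holds 6 CpG dinucleotides, in capitals.
Cav3: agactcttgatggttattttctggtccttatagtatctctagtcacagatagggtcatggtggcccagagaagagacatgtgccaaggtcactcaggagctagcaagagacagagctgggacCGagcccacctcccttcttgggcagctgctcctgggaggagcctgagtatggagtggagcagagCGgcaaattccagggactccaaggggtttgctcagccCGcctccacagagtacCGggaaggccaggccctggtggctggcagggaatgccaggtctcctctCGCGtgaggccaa
The domain was a lone peak of 1272 bp in the replicated list, while pool G gave 1206 bp and pool H 1416 bp (1311 ± 148 bp, SD, n = 2). It was wider than that of 22.1%, 16.5% and 34.6% of the marked genes in these lists, below the median in each. Cav3 was the only member with a wider domain in pool H than in pool G, and the log2 width of pool G minus that of pool H, -0.23 at Cav3, had a median of 0.17 over the genes marked in both pools. The fold enrichment was 8.24 in the replicated list, 11.7 in pool G and 6.88 in pool H. The mark covered 8.97% of the gene body in the replicated list, and no other peak stood within the gene in any list.

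Cavin4, the muscle cavin, had the weakest mark of the family but not a narrow domain. It lies on the plus strand of chromosome 4 from 48663514 to 48673502, and its promoter, at chr4:48663264-48663563 on GRCm38.p6, holds 7 CpG dinucleotides, in capitals.
Cavin4: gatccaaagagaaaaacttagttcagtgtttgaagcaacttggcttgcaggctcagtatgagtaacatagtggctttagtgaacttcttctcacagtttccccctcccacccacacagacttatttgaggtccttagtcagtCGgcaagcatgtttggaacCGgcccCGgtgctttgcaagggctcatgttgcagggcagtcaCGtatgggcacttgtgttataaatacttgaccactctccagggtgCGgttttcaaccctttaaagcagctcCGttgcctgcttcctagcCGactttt
The fold enrichment was 6.24 in the replicated list, 6.21 in pool G and 5.08 in pool H, higher than in 10.5%, 7.56% and 7.20% of the marked genes in these lists. The domain nevertheless measured 3805 bp in the replicated list, while pool G gave 4208 bp and pool H 2758 bp (3483 ± 1025 bp, SD, n = 2). It was wider than that of 91.9%, 93.1% and 85.2% of marked genes, and it was made of 2 peaks in the replicated list, 3 in pool G and 2 in pool H.

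**Figure D2:**
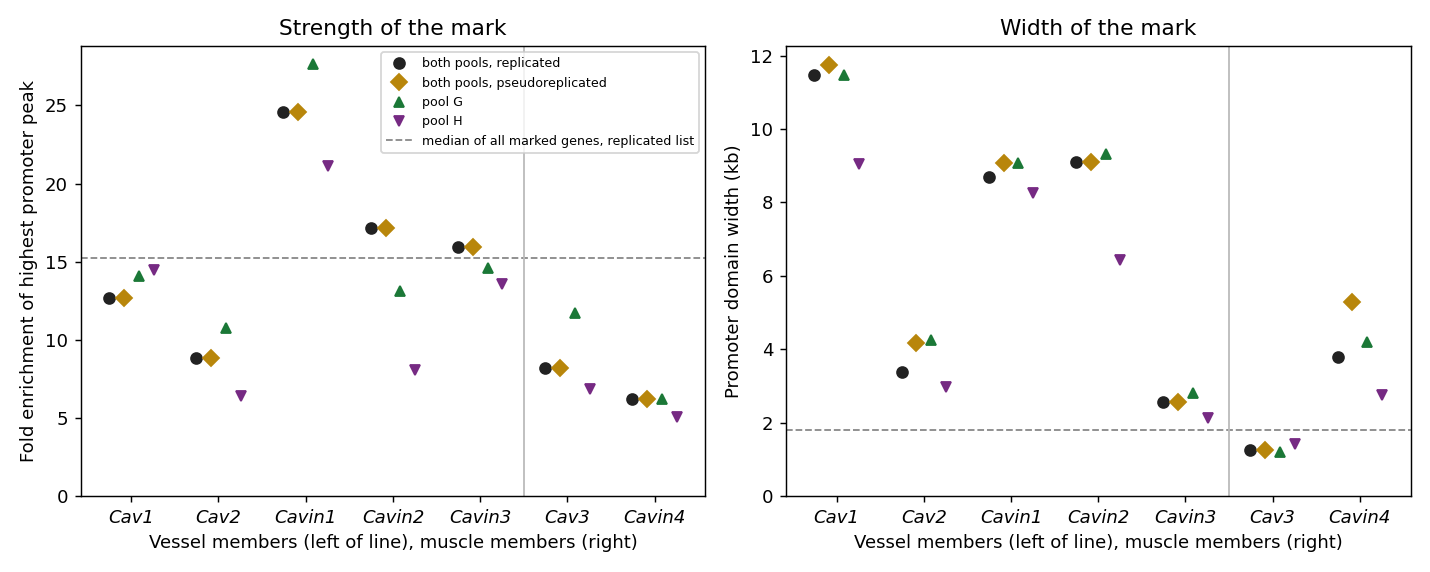
Fold enrichment of the highest promoter peak (left panel) and promoter domain width in kb (right panel) of each gene in the 4 lists, with the vessel members left of the vertical line and the muscle members right of it. The dashed lines are the medians of all marked genes of the replicated list, 15.3 and 1799 bp. Cav1, Cavin1 and Cavin2 stand above the other members by width in every list, and Cav3 lies below the median width.

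Set side by side, the vessel members had the higher median strength and width, but the groups overlapped. In the replicated list the fold enrichment had a median of 16.0 over the 5 vessel members, with a range of 8.82 to 24.6, and was 8.24 and 6.24 at the muscle members Cav3 and Cavin4. The gap between the nearest members, 8.82 at Cav2 and 8.24 at Cav3, was small, and their order turned in each pool's own list. Cav2 stood at 10.8 and Cav3 at 11.7 in pool G, and Cav2 at 6.40 and Cav3 at 6.88 in pool H. Width ranged from 2569 to 11459 bp over the vessel members, with a median of 8682 bp, and was 1272 bp at Cav3 and 3805 bp at Cavin4. Cavin4 was thus wider than Cavin3 and Cav2 in the replicated list. Against Cav2 this order turned in each pool's own list, with 4264 bp at Cav2 and 4208 bp at Cavin4 in pool G, and 2978 bp at Cav2 and 2758 bp at Cavin4 in pool H. With no gaps joined in the replicated list it turned too, with 3389 bp at Cav2 and 2775 bp at Cavin4. The same widths were found with -log10 q of at least 5. Expressed on the log2 scale, the vessel median exceeded the muscle median by 1.77 for width and 1.14 for fold enrichment. In the pools' own lists the width difference was 1.75 in pool G and 1.63 in pool H, and the fold enrichment difference was 0.65 in pool G and 1.19 in pool H. Without Cavin1, which muscle caveolae need as well, the width difference in the replicated list was 1.30. Among the cell type markers, the median width in the replicated list was 5092 bp for heart muscle and 5369 bp for endothelium. It was 6336 and 5980 bp in pool G, and 3217 and 4184 bp in pool H.

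The width of the vessel group rested on Cav1, Cavin1 and Cavin2, each wider than at least 99.2% of the marked genes in each of the 4 lists. Of the remaining vessel members, Cav2 was wider than 89.1% and Cavin3 wider than 77.2% in the replicated list. The order by width in the replicated list was Cav1, Cavin2, Cavin1, Cavin4, Cav2, Cavin3 and Cav3. Cavin2 and Cavin1 were 422 bp apart there, which is less than the SD over the pools of either, and Cavin4 and Cav2 differed by 416 bp, also less than either SD.

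**Figure D3:**
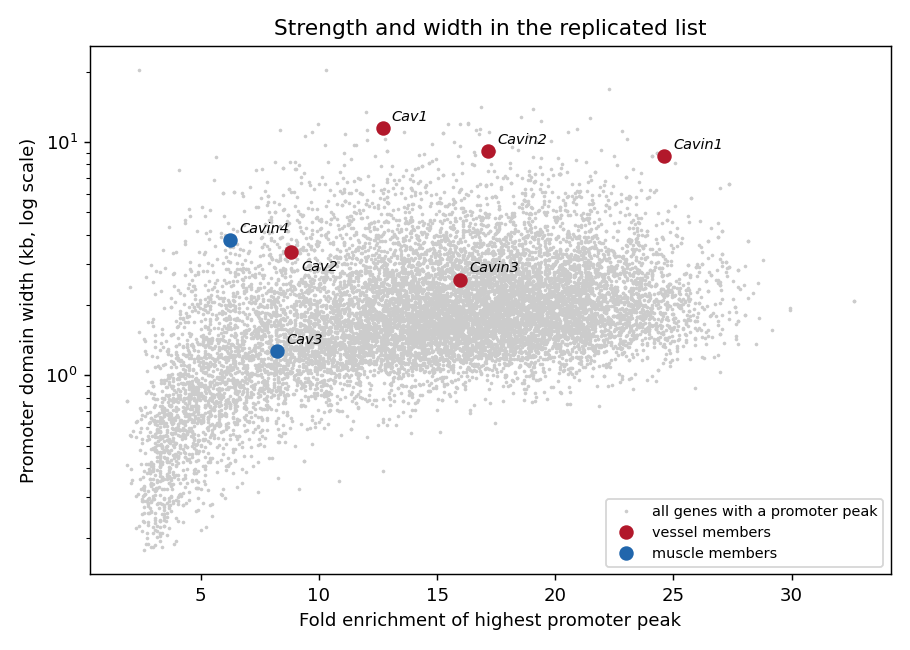
Fold enrichment of the highest promoter peak against promoter domain width in kb (log scale) in the replicated list, each grey dot being a gene with a promoter peak, with vessel members in red and muscle members in blue. Cavin1 lies at the strong and wide end, while Cavin4 is weaker than most genes and wider than most.

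The groups differed in where the mark began. In the replicated list the domains of the vessel members reached 349 bp (Cavin1), 546 bp (Cavin3), 607 bp (Cavin2), 710 bp (Cav1) and 1384 bp (Cav2) upstream of the first start. The Cav3 domain reached 73 bp upstream, and that of Cavin4 began 11 bp downstream of its start. In pool G the vessel members reached 351 to 1465 bp upstream, the Cav3 peak began 42 bp downstream of the start, and the Cavin4 peak reached 1 bp upstream. In pool H the vessel members reached 349 to 1133 bp, Cav3 reached 258 bp, and Cavin4 began 50 bp downstream. The groups did not overlap in any list, with the nearest members 349 and 258 bp in pool H. A reach under 100 bp, or none, was seen at 2 of 2 muscle members and 0 of 5 vessel members in the replicated list, against 18.3% of all marked genes. The same count was 2 of 2 and 0 of 5 in pool G, against 16.8%, and in the pseudoreplicated list, against 18.1%, and it was 1 of 2 and 0 of 5 in pool H, against 21.0%. The pattern was singled out after the peaks had been seen. With RefSeq starts the vessel members reached 607 to 1384 bp in the replicated list.

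Coverage of the promoter sequences differed as well among the 6 members with one in the RefSeq table, which are those other than Cavin3. All 300 bp of the promoters of Cav1, Cav2, Cavin1 and Cavin2 lay under a peak in every list. Of the Cav3 promoter 123 bp did so in the replicated list, with 8 bp covered in pool G's list and 300 bp in that of pool H. Of the Cavin4 promoter 39 bp did so in the replicated list, with 51 bp covered in pool G's list and 0 bp in that of pool H. The start of Cav3 itself was outside the peak in pool G, and the start of Cavin4 was outside it in every list but that of pool G. At each vessel member a start lay under the peak in all 4 lists. Over all marked genes, 93.6% had a coding start inside a promoter peak in the replicated list, 94.6% in pool G, 92.2% in pool H and 93.4% in the pseudoreplicated list.

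Where the mark peaked, the members did not differ in side. The summit of the highest promoter peak lay downstream of the nearest coding start for all 7 members in all 4 lists, as it did for 77.6% of all marked genes in the replicated list, 77.0% in pool G, 77.3% in pool H and 77.6% in the pseudoreplicated list. In the replicated list it lay 159 bp downstream at Cav2, 172 bp at Cav1, 177 bp at Cavin4, 267 bp at Cavin3, 325 bp at Cav3, 456 bp at Cavin2 and 591 bp at Cavin1. In the same list the domain ended within intron 1 at Cavin1, Cavin2, Cav3 and Cavin4, within intron 2 at Cav1 and Cav2 and within exon 2, the last exon, at Cavin3.

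CpG content did not order the members by width. The observed over expected CpG ratio within 1000 bp of the first start was 0.61 at Cavin1, 0.52 at Cavin3, 0.43 at Cav2, 0.42 at Cav1 and 0.30 at Cavin2, against 0.45 at Cavin4 and 0.21 at Cav3. Only Cavin1 met the criteria for a high-CpG promoter, a ratio of at least 0.6 with a GC share of at least 0.5. Of the 7294 genes of its class 96.7% were marked. The other 6 members fell in the low-CpG class of 14376 genes, of which 46.0% were marked, with a median width of 1471.5 bp. Within that class the Cav1 domain was wider than 99.9% of marked genes, that of Cavin2 wider than 99.7%, that of Cav2 wider than 92.6% and that of Cavin3 wider than 86.8%. Cavin4, at 94.3%, was also wide for its class, and Cav3, at 35.1%, was not.

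**Figure D4:**
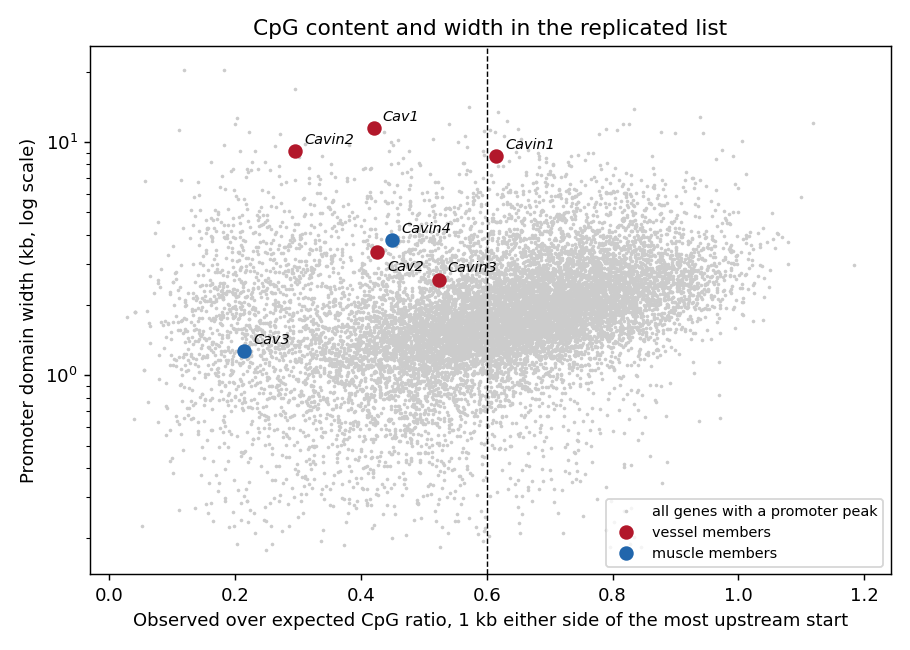
Observed over expected CpG ratio around the most upstream start against promoter domain width in kb (log scale) in the replicated list, with all marked genes in grey, vessel members in red and muscle members in blue. The dashed line is the ratio of 0.6, and Cavin2, at 0.30, has a wide domain left of it.

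Short motifs were counted on both strands of the 300 bp promoters of the same 6 members, without Cavin3, with positions from the RefSeq start. A TATAAA match stood 30 bp upstream of the Cavin4 start and 221 bp upstream of the first Cav1 start, and 13.6% of 32851 RefSeq promoters of this length hold one. The CCAAT box was matched at Cavin1, 63 bp upstream, Cavin2, 140 bp upstream, and Cav2, 182 bp upstream, in 37.4% of all promoters. GGGCGG was matched at Cav1, Cav2 and Cavin1, in 35.7% of all promoters, and not at Cavin2, Cav3 or Cavin4. The E-box CANNTG was matched at Cav3 and Cav2, with 2 matches each, and at Cavin4 and Cav1, in 72.3% of all promoters. GATA was matched at Cav1, Cavin2 and Cav3, in 57.9% of all promoters, and the ETS core GGAA at all 6 members, in 96.0%. None of the 6 members' promoters held a CArG box, the serum response factor motif, or a MEF2 site, present in 1.63% and 3.19% of all promoters. None of these matches overlapped a match of another motif. A match is a string of letters and not a bound site.

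The pools shared most of the marked base pairs at each member. The bases under the peaks of the domain in both pools made up 86.7% of those under either at Cavin1, 76.2% at Cav1, 76.2% at Cavin3, 75.9% at Cavin2, 74.1% at Cav3, 71.2% at Cav2 and 68.2% at Cavin4. The median over all genes marked in both pools was 84.9%, so that Cavin1 alone of the members lay above it. At Cav2, Cavin1, Cavin2 and Cavin3 the domain of pool H lay wholly under peaks of the domain of pool G.

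Other genes of caveola function were mostly marked. Of 12 genes of the caveolar neck and coat 11 were marked in the replicated list, with a median width of 2535 bp. Pacsin1, a membrane-curving protein of neurons, was the one without, and had a weak peak in the pseudoreplicated list, at a fold enrichment of 1.82. Ehd2, the ATPase that rings the caveolar neck, had the widest domain of this list, 6576 bp with a fold enrichment of 13.3, followed by Ehd1, an endocytic recycling ATPase, with 5457 bp and 20.4. Of 8 genes for proteins known from caveolae of vessels 7 were marked, with a median width of 2898 bp. The widest domains were those of Cd36, which takes up fatty acids, at 9689 bp, and of Kdr, the main VEGF receptor of endothelium, at 9173 bp. Plvap, a diaphragm protein of fenestrated vessels, had no peak in any list. Of 9 muscle membrane partners 7 were marked, with a median width of 2308 bp, and Capn3, a muscle protease, and Nos1, the neuronal nitric oxide synthase, were not. Popdc2, a cyclic AMP-binding membrane protein, had 4265 bp and a fold enrichment of 9.45, and Dag1, which encodes dystroglycan, had 3199 bp and 20.3. Both flotillin genes, Flot1 with 3414 bp and Flot2 with 1500 bp, were marked, and the Flot1 domain also reaches the promoter of Ier3. All these counts stand beside 63.0% of all protein-coding genes.

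By width and fold enrichment in the pools' own lists, the genes most like each member were found among the 13245 genes marked in both pools, by the Euclidean distance over 4 log2 values. For Cav1 they were Qk, at a distance of 0.31, and Kmt2e, at 0.35. For Cav2 they were C1qtnf9, at 0.18, and Plekhg3, at 0.21. For Cavin1 they were Tshz1 and Zadh2, both at 0.19, which lie on the same chromosome, 18, and have identical values in both pools. For Cavin2 they were Erg, at 0.31, and Sparcl1, at 0.33, and for Cavin3 Ppp2r2a, at 0.084, and Sulf2, at 0.12. For Cav3 they were Otud7a, at 0.10, and Irf5, at 0.11, and for Cavin4 Aqp7, at 0.28, and Trdn, at 0.31. Within the family the nearest pair was Cav2 and Cavin4, at 0.87, a vessel and a muscle member, followed by Cav1 and Cavin2, at 1.03.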

How the data were processed

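H3K4me3 peaks from 4 libraries of mouse heart were taken from 4 narrowPeak lists, with mm10 coordinates. The readme texts deposited beside them assign 1 list to pool G, 1 to pool H and 2 to the pools together, 1 of these called replicated. The technical replicates within a pool share an alignment, so no values per library were used. The sources used here name no peak caller, threshold or read depth. The lists have no header, and their deposited signal column was taken to be fold enrichment, a ratio over control, which is an assumption. The -log10 q value and the summit offset in bp, another column of the same lists, are also deposited by the authors.

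Domains were made by joining peaks with gaps of up to 1000 bp. Starts came from protein-coding transcripts of GENCODE M21 outside chromosome Y and the mitochondrion, and promoter sequences from RefSeq's table on GRCm38.p6, which matched 6 of the 7 members, those other than Cavin3. Promoter windows reached 1000 bp on either side of a start, with a minimum overlap of 1 bp. Python 3.11.15, numpy 2.4.6, matplotlib 3.10.9 and bedtools 2.31.1 were used. Joined intervals and overlaps were tested on simulated data and were equal to those of bedtools.

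The members and gene lists were chosen with earlier results of these data known. The genes named were the 7 members, and in each partner list the 2 with the widest domains and those without a peak. Genes sharing a member's domain, and the 2 genes nearest to each member by width and fold enrichment, were also named. No test was run.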

Additional observations from a re-analysis of the deposited data

How the results depend on the processing

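All 7 members kept a promoter peak in the other 3 lists, with -log10 q of at least 5, with promoter windows of 500 and 2000 bp, with the longest transcript only, with the starts of every transcript, with gaps of 0 and 3000 bp and with the nearest peak. The window of 2000 bp, the starts of every transcript, the gaps and the nearest peak could not have removed a promoter peak. Under all the settings above, the differences between vessel and muscle members in width, fold enrichment and upstream reach kept their sign. The counts of the 4 partner lists stayed within 1.5 times of the main count. The log2 difference in median width, 1.77, moved to 1.63 in pool H's own list, 1.47 in the pseudoreplicated list, 2.17 with a gap of 3000 bp and, chosen after seeing the data, 1.30 without Cavin1. The log2 difference in median fold enrichment, 1.14, moved to 0.65 in pool G's own list. The difference in median upstream reach, 576 bp, was 438 bp in pool H, 748.5 bp in pool G and 618 bp with RefSeq starts, an alternative chosen after seeing the data. Of the values of single members under these alternatives, 20 of 154 moved by more than the SD over the pools, which with 2 pools is itself poorly known. The fold enrichment of each member was identical under every setting but the pools' own lists, so this count says little about its stability. In the pools' own lists it moved at Cav1, Cavin2 and Cavin3 in both pools, at Cav3 in pool G and at Cavin4 in pool H. Leaving out 1 pool at a time leaves the other pool's own list, so it adds no further check. It gave 1.63 to 1.75 for width, 0.65 to 1.19 for fold enrichment and 438 to 748.5 bp for upstream reach. With no gaps joined, the width of Cav1 was 7262 bp, of Cavin2 6721 bp and of Cavin4 2775 bp, and with gaps of up to 3000 bp that of Cavin1 was 12597 bp and of Cavin2 12326 bp, so Cav1 was not the widest under either. The stricter -log10 q of at least 5 also moved widths, to 9277 bp at Cav1, 6721 bp at Cavin2 and 2775 bp at Cavin4. Cav1 was still the widest there. The cause of these moves was not tested. No paired analysis was possible because the pools are replicates of 1 group and no groups of samples were compared. Read depth was unknown, so the absence of a peak is no measure of absence of the mark.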
